A study of Mus musculus with 12 samples.

Results

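The genes described here make, import or use creatine, and they were taken by symbol from a table of RNA counts in mouse mammary tissue. They number 7 of the 16411 genes in the table. Ckb and Ckmt1 encode the creatine kinases of epithelial and other non-muscle cells, Ckm and Ckmt2 encode the creatine kinases of muscle, Gatm and Gamt encode both enzymes of creatine synthesis, and Slc6a8 encodes the creatine transporter. In the samples, RNA of 6 mammary tumors was compared with that of 6 benign mammary tissues. All 12 samples came from female MMTV-Neu-NDL-YD5 transgenic mice on an FVB background, so tumor and benign tissue carried the same transgene. It is an activated HER2/neu receptor with a single restored signaling site, driven by the mouse mammary tumor virus promoter in mammary epithelium. Benign tissue was gland without a visible tumor, taken from tumor-bearing mice at the body site most distant from their tumors, so the mammary region can differ between the groups. For RNA the tumor and benign samples were from different mice, and no agent was given. The labels do not say whether each tumor came from a mouse of its own, so p-values measure the spread between these samples.

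Creatine kinases move a phosphate group between ATP and creatine, so that phosphocreatine holds a reserve of phosphate that can be returned to ADP. Cytosolic forms (Ckb, brain type, and Ckm, muscle type) work at sites of ATP use, and mitochondrial forms (Ckmt1, ubiquitous type, and Ckmt2, sarcomeric type) sit between the mitochondrial membranes, beside the exporter of ATP. Creatine itself is made in a pair of steps, in which Gatm joins arginine and glycine into guanidinoacetate and Gamt methylates that to creatine, or it is taken up from blood by Slc6a8. The mammary gland is a mixed tissue of epithelium, fat, vessels and stroma, and in the mouse its fat pads lie against skeletal muscle of the body wall and limbs.

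The 4 kinases are products of related genes, and the stretch that encodes the active-site cysteine is shown first because it shows how far their transcripts can be told apart. Each sequence is 60 bases of coding sequence, 5′ to 3′ on the gene's strand in GRCm38 (mm10), with the cysteine codon starting at base 16, and capitals mark the bases that differ from Ckb.
Ckb, exon 7 of 8, chr12:111669901-111669960, minus strand: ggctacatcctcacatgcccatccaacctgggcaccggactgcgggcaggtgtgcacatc
Ckm, exon 7 of 8, chr7:19420161-19420220, plus strand: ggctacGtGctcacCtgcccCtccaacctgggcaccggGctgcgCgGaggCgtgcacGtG
Ckmt1, exon 7 of 9, chr2:121362729-121362788, plus strand: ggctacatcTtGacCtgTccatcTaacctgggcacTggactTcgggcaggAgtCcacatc
Ckmt2, exon 8 of 10, chr13:91858232-91858291, minus strand: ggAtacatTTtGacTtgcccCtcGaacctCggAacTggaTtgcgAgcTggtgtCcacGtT
In this conserved window Ckm matched Ckb at 50 of 60 bases, Ckmt1 matched it at 51 and Ckmt2 at 44. The mitochondrial pair, Ckmt1 and Ckmt2, matched each other at 45 bases. Over whole transcripts, none of the 50-base stretches of Ckm, Ckmt1, Ckmt2, Gatm, Gamt or Slc6a8 (0% each) occurred in the transcripts of another annotated gene, at the length of the sequenced read ends. Transcripts were compared in their own direction only, and matches to the opposite strand were not searched. Ckb shared 9.98% of its 50-base stretches (312 of 3125), of which 309 lie in the pseudogene Gm12892, so part of its reads could have been assigned to either gene.

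By the GENCODE annotation of GRCm38, Ckb lies at chr12:111669361-111672338 on the minus strand, Ckm at chr7:19404776-19422841 on the plus strand, Ckmt1 at chr2:121357714-121363737 on the plus strand and Ckmt2 at chr13:91853387-91876885 on the minus strand. Gatm lies at chr2:122594467-122611303 on the minus strand, Gamt at chr10:80258151-80261012 on the minus strand and Slc6a8 at chrX:73673150-73682502 on the plus strand. All are protein-coding genes. Ckmt1 is overlapped on the opposite strand by Strc, Ckm by the antisense gene A930016O22Rik and Ckmt2 by the antisense gene 1700119I11Rik. The library kit keeps strand, but the strand setting of the counting is not given in the sources used here.

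The promoters of the 4 kinases follow, since these genes moved in different directions below. Each is the 250 bases before the transcription start in RefSeq (GRCm38.p6), 5′ to 3′ on the gene's strand, and capitals mark matches on either strand to TATAAA (the TATA box), to CCAAT (the CCAAT box), to CANNTG (the E-box bound by muscle and other helix-loop-helix factors) and to AAGGTCA (the element bound by estrogen-related receptors), none of which overlapped.
Ckb, chr12:111672339-111672588, minus strand: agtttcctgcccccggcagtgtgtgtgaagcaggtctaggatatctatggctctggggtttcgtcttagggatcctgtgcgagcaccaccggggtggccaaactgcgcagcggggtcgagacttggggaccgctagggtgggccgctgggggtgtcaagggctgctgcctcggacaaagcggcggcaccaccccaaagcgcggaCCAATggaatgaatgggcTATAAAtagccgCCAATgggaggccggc
Ckmt1, chr2:121357526-121357775, plus strand, the first of its RefSeq starts: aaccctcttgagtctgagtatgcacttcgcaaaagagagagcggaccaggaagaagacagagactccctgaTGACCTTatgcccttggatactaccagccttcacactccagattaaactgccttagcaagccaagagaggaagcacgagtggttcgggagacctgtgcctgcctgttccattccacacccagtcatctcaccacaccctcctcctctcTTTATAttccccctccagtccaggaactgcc
Ckm, chr7:19410844-19411093, plus strand: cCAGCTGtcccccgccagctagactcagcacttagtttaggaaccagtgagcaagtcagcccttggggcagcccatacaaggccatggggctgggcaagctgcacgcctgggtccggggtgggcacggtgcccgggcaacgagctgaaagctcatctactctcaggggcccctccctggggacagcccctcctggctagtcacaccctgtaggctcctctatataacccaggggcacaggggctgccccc
Ckmt2, chr13:91876886-91877135, minus strand: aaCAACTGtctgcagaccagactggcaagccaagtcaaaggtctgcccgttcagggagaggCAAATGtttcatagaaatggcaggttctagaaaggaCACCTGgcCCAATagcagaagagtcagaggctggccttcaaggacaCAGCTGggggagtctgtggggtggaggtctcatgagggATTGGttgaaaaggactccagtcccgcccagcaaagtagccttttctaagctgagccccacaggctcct
Ckb held 2 CCAAT matches and 1 TATAAA match. Ckmt1 held 1 TATAAA and 1 AAGGTCA match, Ckm held 1 CANNTG match, and Ckmt2 held 4 CANNTG and 2 CCAAT matches. Among 32536 mouse promoters of the same length, 12.3% held TATAAA, 33.8% CCAAT, 66.2% CANNTG and 4.09% AAGGTCA. A match is a run of letters and was not tested for binding.

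The deposited values were estimated counts per gene, which summed to between 5240853 and 8170687 in benign samples and between 6111393 and 8588567 in tumors, so that 3 counts corresponded to 0.329 to 0.551 CPM (counts scaled to library size with the trimmed mean of M values). Levels below are CPM, fold changes and adjusted p-values are from edgeR's quasi-likelihood test over 13191 genes with Benjamini-Hochberg adjustment, and genes at an adjusted p under 0.1 are called changed. By this test 63% of all genes were called, 28.2% higher and 34.8% lower in tumors, so a called gene was not unusual in this comparison. Exact p-values are two-sided permutation tests over the 924 ways of splitting the samples, and 0.00216 is the smallest that they can give. Erbb2, which checks the labels, ranged from 42.9 to 73.5 CPM in benign samples and from 1986 to 16611 CPM in tumors. Markers of other tissues differed greatly between samples. In benign 3, 4 and 6 the summed level of 16 skeletal muscle markers was 56350, 36955 and 91580 CPM, against 46.1, 58.7 and 414 CPM in benign 1, 2 and 5 and 6.47 to 172 CPM in tumors. Summed white fat markers fell from 17321 to 34966 CPM in benign tissue to 13.7 to 178 CPM in tumors, with 8 of 8 genes called lower, and myoepithelial markers from 681 to 1597 CPM to 29.2 to 97.2 CPM, with 7 of 7 called lower. Summed luminal epithelial markers ranged from 873 to 2661 CPM in benign samples and from 3046 to 4544 CPM in tumors, with 7 of 8 called higher and Krt19 called lower. The defining luminal keratins Krt8 and Krt18 were present in every sample, and Adipoq, which defines fat cells, fell from a mean of 1077 to 2.82 CPM. Of the other marker lists, 5 of 6 tested brown fat genes, 1 of 1 slow muscle genes and 4 of 5 immune genes were called lower, and of 7 nerve and glia genes 2 were called higher and 4 lower. In bulk tissue, fewer cells of a type and less RNA per cell cannot be told apart.

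Among the creatine genes, Ckmt1, Gatm and Slc6a8 were higher in tumors, and Ckb, Gamt and Ckm were lower. These are 3 higher and 3 lower of the 6 genes that passed the expression filter, beside 28.2% higher and 34.8% lower of all tested genes. Ckmt2 did not pass the filter. For Ckmt1, Gatm, Slc6a8, Ckb and Gamt the groups did not overlap, as was the case for 15.5% of all tested genes in the higher direction and 20.5% in the lower. Ckm was called lower, but its groups overlapped and its high values lay in benign 3, 4 and 6.

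**Figure D1:**
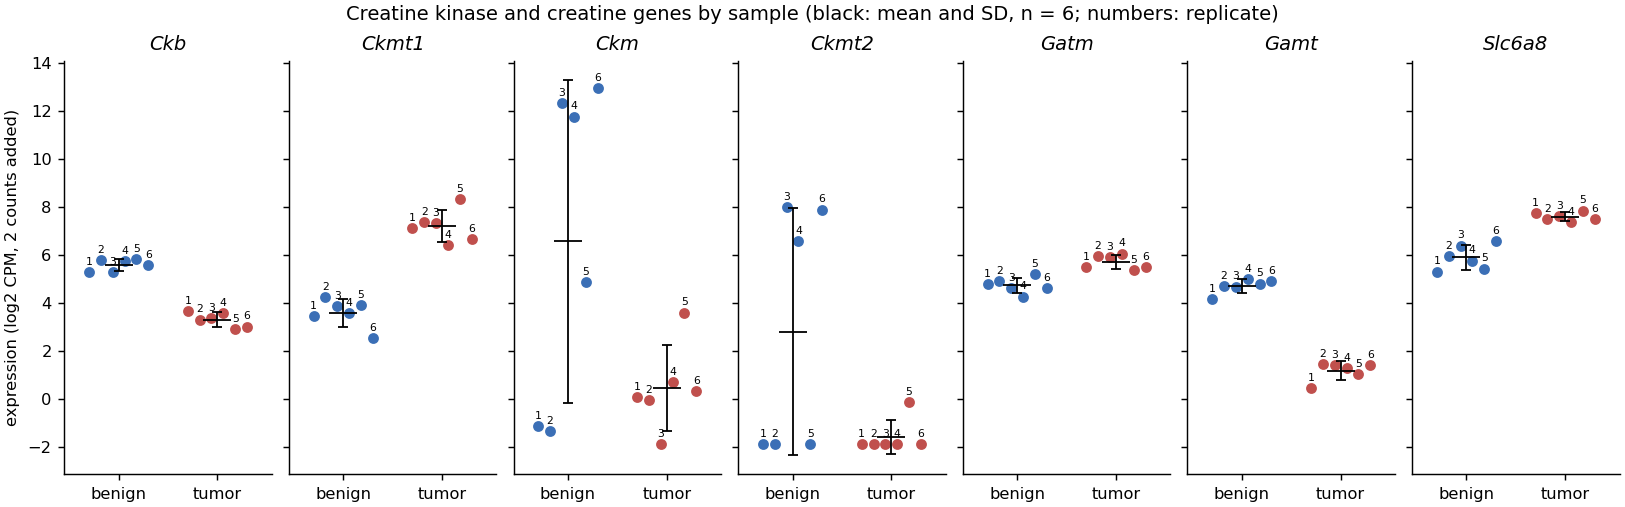
Level of each creatine gene in each sample, in log2 CPM with 2 counts added, for 6 benign samples (blue) and 6 tumors (red), with the replicate number above each point and the mean and SD in black. Ckb and Gamt lie lower and Ckmt1, Gatm and Slc6a8 higher in all 6 tumors, whereas Ckm and Ckmt2 reach their high values in benign 3, 4 and 6.

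Ckmt1, the mitochondrial kinase of non-muscle cells, had the largest rise of the 7 genes. In benign tissue it ranged from 5.49 to 18.6 CPM with a median of 13.0, and in tumors from 85.7 to 324 CPM with a median of 149. The lowest tumor, tumor 4, stood above the highest benign sample, benign 2. Means were 12.6 ± 4.44 CPM in the benign samples and 162 ± 85.2 CPM in tumors (SD, n = 6 each), a 12.9-fold difference of means. The log2 fold change was 3.65 (SE 0.356, edgeR adjusted p = 2.15e-06, exact p = 0.00216). Tumor 5 held 324 CPM, apart from the other 5 tumors at 85.7 to 164 CPM, and it was also the tumor with the most Krt18 (1522 CPM) and the only tumor with counts of Ckmt2 and Ucp1. Without benign 3, 4 and 6 and tumor 5, a set of samples chosen after the data were seen, the log2 fold change of Ckmt1 was 3.16 (edgeR adjusted p = 3.24e-05).

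Ckb, the cytosolic kinase of non-muscle cells, moved the other way. Its level ranged from 38.7 to 57.2 CPM in benign tissue, with a median of 50.1, and from 7.27 to 12.4 CPM in tumors, with a median of 9.80. All 6 tumors lay below every benign sample. Means were 48.3 ± 8.06 and 9.80 ± 2.06 CPM (SD, n = 6 each), so the benign mean was 4.92 times the tumor mean, and the log2 fold change was -2.33 (SE 0.166, edgeR adjusted p = 1.29e-07, exact p = 0.00216). The spread within each group was small, with the highest benign sample at 1.48 times the lowest and the highest tumor at 1.71 times the lowest. Benign 3, 4 and 6, the samples with muscle transcripts, held 46.3 ± 7.17 CPM, and benign 1, 2 and 5 held 50.2 ± 9.99 CPM (SD, n = 3 each).

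The opposite changes of Ckb and Ckmt1 altered their proportions within each sample. Counted as CPM per kilobase, with the mean length of annotated transcripts, Ckmt1 made up 14.2 to 34.7% of the sum of Ckb and Ckmt1 in benign tissue, with a mean of 26.8 ± 7.30% (SD, n = 6). In tumors it made up 91.3 to 98.5% of that sum, with a mean of 95.1 ± 2.38% (SD, n = 6). The ratio of Ckmt1 to Ckb was 0.377 ± 0.130 in benign tissue and 26.0 ± 19.2 in tumors. Since the rise of Ckmt1 was larger in these units than the fall of Ckb, the summed level of both was 51.6 ± 9.21 CPM per kilobase in benign tissue and 188 ± 94.0 in tumors (SD, n = 6 each). The lowest tumor, at 105 CPM per kilobase, was above the highest benign sample, at 63.2. These proportions follow from the levels above and were not tested separately. With the longest annotated transcript as length, Ckmt1 made up 30.8% in benign tissue and 96.0% in tumors on average.

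The muscle kinases showed a different picture, in which benign samples differed among themselves. Ckm was measured at 5146, 3493 and 8027 CPM in benign 3, 4 and 6, at 28.9 CPM in benign 5, and at 0.184 and 0.119 CPM in benign 1 and 2, where 1 count each was found. In tumors it was at 0.777, 0.687, 0, 1.35, 11.9 and 0.987 CPM in tumors 1 to 6. Benign 1 and 2 therefore lay below 5 of the 6 tumors, and only tumor 3, at 0 counts, was lower. Means were 2783 ± 3366 CPM in the benign samples and 2.61 ± 4.56 CPM in tumors (SD, n = 6 each). The log2 fold change was -10.1 (SE 2.41, edgeR adjusted p = 0.0031), while the exact permutation test on log2 CPM gave p = 0.0844. Without benign 3, 4 and 6 the log2 fold change was -1.87 and was not called (edgeR adjusted p = 0.330), in a comparison in which 28.7% of all genes were called lower and 26.7% higher, and the exact p over 84 splits was 0.893. These are the samples in which Ckm was high, so their removal fixes the loss of most of the difference, and the values describe the other samples only. With a muscle marker score and Ucp1 as covariates the log2 fold change of Ckm was 1.02, again not called (edgeR adjusted p = 0.335), against 47.8% of all genes. The score holds markers that follow Ckm closely, such as Mylpf (Pearson's correlation 0.984). Adjusting for it therefore fixes the loss of the difference as well, and this value tests nothing.

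Ckmt2, the sarcomeric mitochondrial kinase, was found in the same 3 benign samples. It had 2002, 545 and 1431 counts in benign 3, 4 and 6, which is 252, 94.6 and 238 CPM, and 0 counts in benign 1, 2 and 5. Among tumors, 5 had 0 counts and tumor 5 had 5 counts (0.638 CPM), close to the 3 counts that a reading of 0 allows. The groups overlapped, since 3 benign samples and 5 tumors shared the value of 0. With counts above the minimum in too few samples, Ckmt2 was under the expression filter and got no value in the main edgeR test. The exact test of mean log2 CPM gave a difference of -4.39 and p = 0.182. DESeq2, which applied no such filter, gave a log2 fold change of -9.87 (adjusted p = 0.00217, with 33.3% of all genes called lower), and edgeR with a minimum of 1 count in total gave -9.59 (adjusted p = 0.00265, with 33.4% called lower). On simulated counts, 47 of 202 calls by DESeq2 were false, against 18 of 170 by edgeR under its main filter. Benign 3, 4 and 6 are the sole benign samples with counts of Ckmt2. Without them the difference of 0.290 rests on the 5 counts of tumor 5 alone and tests nothing.

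The muscle kinases were set beside the markers of skeletal muscle. In benign 3, 4 and 6, Ckm stood at 9.13, 9.45 and 8.77% of the summed muscle marker level, and in benign 5 at 6.98%. In benign 1 and 2 it stood at 0.398 and 0.203%, on 1 count each, and in tumors at 0 to 15.3%, on 0 to 93 counts. Ckmt2 stood at 0.448, 0.256 and 0.260% in benign 3, 4 and 6, at 0.371% in tumor 5, and at 0 in the rest of the samples. Acta1, the actin of skeletal muscle, was at 12195, 7479 and 18101 CPM in these 3 samples and at 9.37 to 115 CPM in the other 3. Counts of Ckm exceeded those of Ckmt2 by 20.4, 36.9 and 33.7 times there, and by 18.6 times in tumor 5, on only 5 counts of Ckmt2. Benign 5 had 232 counts of Ckm and 0 of Ckmt2. Tumor 5 also held the highest summed muscle markers among the tumors (172 CPM, against 6.47 to 29.0 CPM in the other 5) and 32.8 CPM of Acta1. Of the 16 muscle markers, 9 passed the expression filter and all 9 were called lower. Slow and cardiac muscle markers were highest in benign 3 (852 CPM) and benign 6 (789 CPM), lower in benign 4, and at most 5.87 CPM in the rest of the samples. The part of muscle tissue in the values of Ckm and Ckmt2 was not tested separately. Ucp1, which defines brown fat, was also highest in the same samples, at 39.2, 1397 and 204 CPM in benign 3, 4 and 6, and its order among them differed from that of Ckm.

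**Figure D2:**
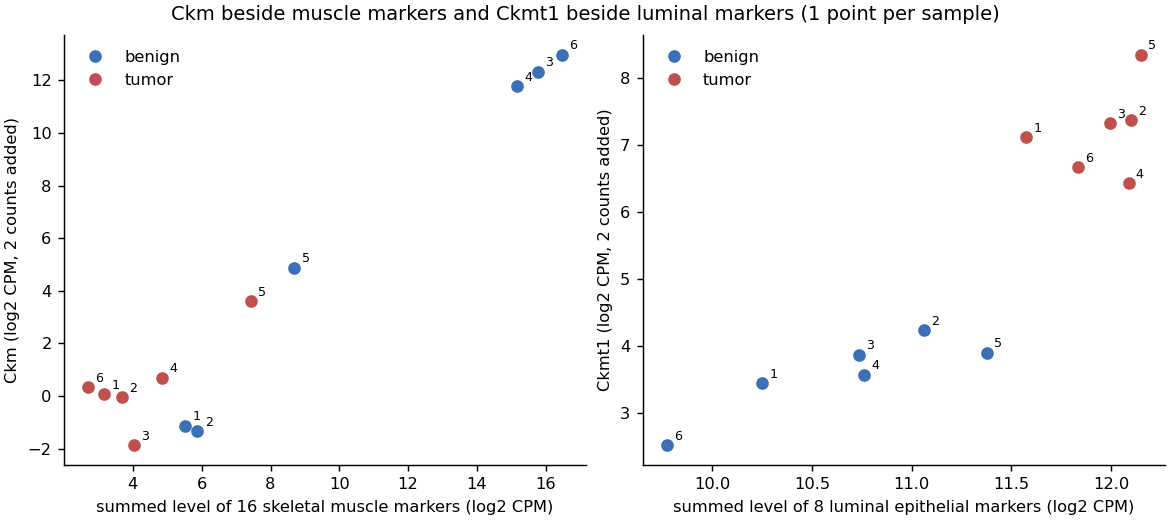
Left, Ckm against the summed level of 16 skeletal muscle markers, and right, Ckmt1 against the summed level of 8 luminal epithelial markers, both in log2 CPM, with 1 numbered point per sample (blue benign, red tumor). Ckm is high only where muscle markers are high, in benign 3, 4 and 6, whereas Ckmt1 is higher in all 6 tumors and the luminal sum is higher there too, from 3046 CPM upward against at most 2661 CPM in benign tissue.

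Across all 4 kinases, per kilobase, the benign samples thus fell into unlike compositions while the tumors were alike. Ckb and Ckmt1 together made up 99.7, 99.9 and 76.5% of the creatine kinase transcripts in benign 1, 2 and 5, but 1.30, 2.28 and 0.798% in benign 3, 4 and 6. In tumors they made up 97.8 to 100%, with the lowest share in tumor 5. A mean over the 6 benign samples (46.8 ± 50.3%) describes none of them. The share of Ckmt1 within the non-muscle pair, Ckb and Ckmt1, was in contrast at most 34.7% in every benign sample, those with muscle transcripts included.

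**Figure D3:**
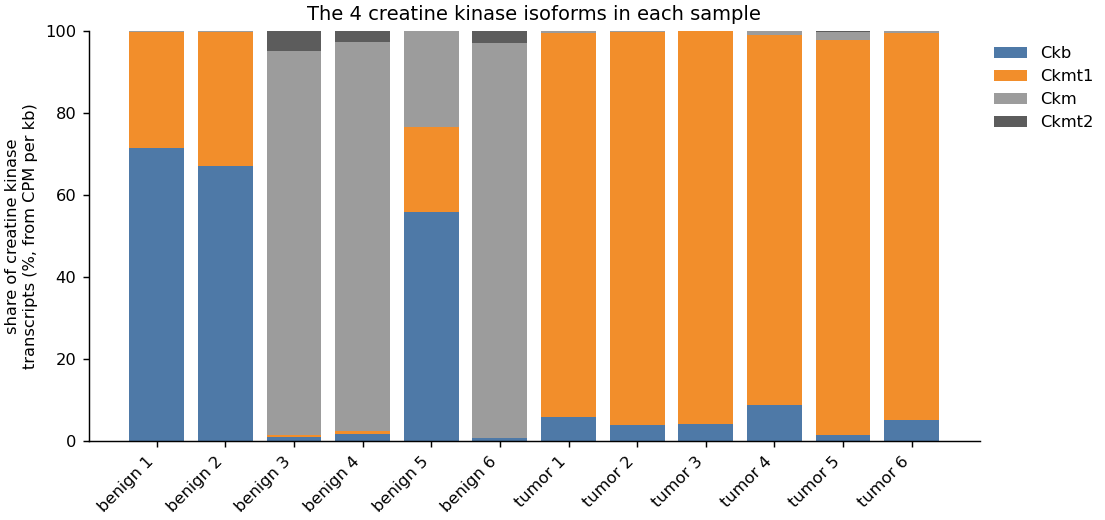
Share of each of the 4 creatine kinases in their sum per sample, in percent of CPM per kilobase (bars stack to 100). Ckm fills the bars of benign 3, 4 and 6, Ckb most of benign 1, 2 and 5, and Ckmt1 91.3% or more of the non-muscle pair (Ckb and Ckmt1) in all 6 tumors.

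The enzymes of creatine synthesis moved apart. Gatm, which performs the first and rate-controlling step in the mitochondrion, ranged from 18.9 to 36.7 CPM in benign tissue (median 26.0) and from 41.3 to 66.3 CPM in tumors (median 52.3). The groups did not overlap, although the gap between benign 5 and tumor 5 was small. Means were 27.0 ± 6.04 and 53.1 ± 10.5 CPM (SD, n = 6 each), a 1.97-fold difference, and the log2 fold change was 0.95 (SE 0.167, edgeR adjusted p = 3.55e-04, exact p = 0.00216). Without benign 3, 4 and 6 it was 0.80 (edgeR adjusted p = 0.0068, exact p = 0.0238).

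Gamt, the methyltransferase of the second step, ranged from 17.4 to 31.9 CPM in benign tissue (median 26.9) and from 1.09 to 2.47 CPM in tumors (median 2.28). Every tumor was below every benign sample. Tumor values rested on 7 to 22 counts, so single tumors are known only roughly, while their mean of 2.05 ± 0.537 CPM was far from the benign mean of 26.4 ± 5.0 CPM (SD, n = 6 each). The benign mean was 12.9 times that of tumors, and the log2 fold change was -3.70 (SE 0.227, edgeR adjusted p = 3.57e-08, exact p = 0.00216). Without benign 3, 4 and 6 it was -3.48 (edgeR adjusted p = 5.44e-06). Gamt stood at 0.0881 to 0.136% of the summed white fat markers in benign tissue and at 1.35 to 18.0% in tumors, where these markers fell further than Gamt did. For Ckb the same values were 0.140 to 0.257% and 4.37 to 70.0%. The part of fat tissue in the falls of Gamt and Ckb was not tested.

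Per kilobase of mean transcript length, Gatm and Gamt were closer to each other in benign tissue than in tumors. The size of their ratio depends on the length used. The mean lengths are 1232 and 822 bases, and the longest transcripts 2389 and 988 bases, for Gatm and Gamt respectively. The ratio of Gatm to Gamt lay between 0.395 and 1.05 in benign tissue, with a mean of 0.713 ± 0.235, and between 12.4 and 27.7 in tumors, with a mean of 18.2 ± 5.35 (SD, n = 6 each). Benign 4, the sample with the most Ucp1, had the lowest ratio, and tumor 1, the tumor with the least Gamt, had the highest. No sample of either group came near the range of the other.

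Slc6a8, the transporter that brings creatine into cells with sodium and chloride, ranged from 39.3 to 96.1 CPM in benign tissue (median 57.7) and from 164 to 231 CPM in tumors (median 188). All 6 tumors were above the highest benign sample, benign 6. Means were 62.9 ± 22.7 and 194 ± 24.7 CPM (SD, n = 6 each), a 3.09-fold difference, with a log2 fold change of 1.58 (SE 0.224, edgeR adjusted p = 5.77e-05, exact p = 0.00216). Benign tissue was not uniform, since benign 3, 4 and 6 held 77.9 ± 21.6 CPM and benign 1, 2 and 5 held 47.8 ± 11.8 CPM (SD, n = 3 each). Without benign 3, 4 and 6 the log2 fold change was 2.05 (edgeR adjusted p = 1.72e-05, exact p = 0.0119, the smallest that 84 splits can give). Benign 3 and 6 held the highest benign levels, at 83.6 and 96.1 CPM. Their removal therefore fixes the rise of the fold change, and the value describes the remaining samples only. The muscle score and Ucp1 as covariates gave 2.08 (edgeR adjusted p = 1.49e-05).

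**Figure D4:**
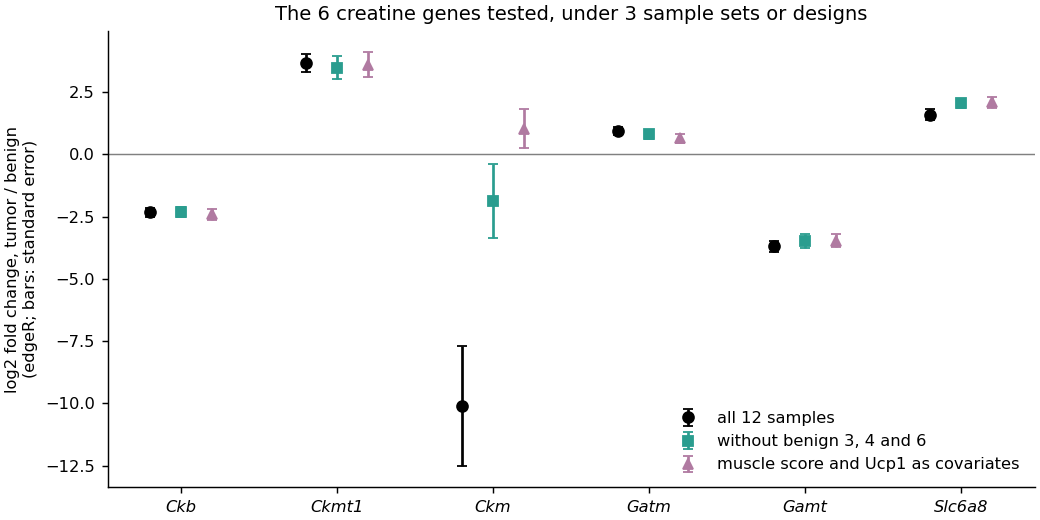
Log2 fold change from benign tissue to tumor, with its standard error, for the 6 creatine genes tested, with all 12 samples (black circles), without benign 3, 4 and 6 (green squares), and with a muscle marker score and Ucp1 as covariates (purple triangles). Ckm moves from -10.1 to -1.87 and 1.02, while the other 5 genes keep their direction. These settings take out the samples in which Ckm is high or adjust for markers that follow it, so its move is fixed by them and tests nothing.

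In order of level per kilobase, benign medians were 1137 CPM for Ckm, 39.0 for Ckb, 34.2 for Slc6a8, 32.7 for Gamt, 31.8 for Ckmt2, 21.1 for Gatm and 14.5 for Ckmt1. This order uses the mean length of annotated transcripts, and other lengths were not read for it. Ckm and Ckmt2 have no fixed place in that order, as their benign values ran from near 0 upward. Benign ranges of Ckb (30.1 to 44.5), Slc6a8 (23.3 to 56.9) and Gamt (21.2 to 38.8) overlapped, so these neighbours did not differ beyond their spread. Those of Ckmt1 (6.11 to 20.7) and Gatm (15.4 to 29.8) overlapped as well. In tumors the medians were 166 CPM per kilobase for Ckmt1, 112 for Slc6a8, 42.5 for Gatm, 7.62 for Ckb, 2.77 for Gamt, 0.569 for Ckm and 0 for Ckmt2. Ckmt1 (95.5 to 361) and Slc6a8 (97.3 to 137) overlapped, and Gatm (33.6 to 53.8), Ckb (5.66 to 9.68) and Gamt (1.32 to 3.01) were each separate. Leaving aside Ckm and Ckmt2, Ckmt1 had the lowest benign and the highest tumor median per kilobase, in ranges that overlapped those of Gatm and Slc6a8 respectively.

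Since tumors held more luminal marker RNA than benign tissue, the 5 genes other than Ckm and Ckmt2 were also set against the summed luminal markers of the same sample. Ckmt1 was at 0.552 to 0.875% of the luminal sum in benign tissue and at 1.97 to 7.13% in tumors, a mean log2 difference of 2.35 (exact permutation p = 0.00216, 0.00361 adjusted over the 5 genes). Ckb and Gamt lay lower against the luminal sum in all 6 tumors, by -3.61 and -5.01 on the log2 scale (exact permutation p = 0.00216 and adjusted 0.00361 for each). For Gatm the difference was -0.31, which did not exceed the spread (exact permutation p = 0.225, adjusted 0.281), with ratios of 1.09 to 2.78% in benign tissue and 0.910 to 1.52% in tumors. For Slc6a8 it was 0.40 (exact permutation p = 0.357, adjusted 0.357), with 1.61 to 11.0% in benign tissue and 3.77 to 7.0% in tumors. The overlap of Slc6a8 came from benign 3 and 6, at 4.91 and 11.0%, whereas benign 1, 2, 4 and 5 were at 3.23, 2.87, 3.11 and 1.61%, below every tumor. Without benign 6 the difference of Slc6a8 was 0.71, and without benign 3, 4 and 6 it was 0.98, sample sets that were added after the data were seen. Their choice removes overlapping samples and so fixes a larger separation, and these values describe the remaining samples only. For Gatm the difference was -0.31 also without benign 3, 4 and 6 (exact permutation p = 0.298, adjusted 0.298). The mean luminal sum itself differed by 2.33-fold between the groups, and its part in these changes was not tested.

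Genes around the creatine system were read from the same fit, in lists of related functions. Of 16 tested genes listed under arginine and methyl supply, 4 were higher and 7 lower in tumors. Their median log2 fold change was 0.084, beside -0.062 over all genes. The list also holds enzymes that use arginine or its product ornithine, namely Arg1, called higher, and Arg2, Nos2, Oat and Odc1, called lower. The counts therefore do not describe supply to Gatm and Gamt alone. Ass1, which makes the arginine precursor argininosuccinate, rose most, from 19.9 ± 10.1 to 166 ± 61.8 CPM (SD, n = 6 each; log2 fold change 3.04, edgeR adjusted p = 7.86e-06). Slc7a2, a transporter of arginine and other cationic amino acids, fell most, from 71.8 ± 47.6 to 4.08 ± 0.905 CPM (log2 fold change -4.17, edgeR adjusted p = 2.85e-06). Of 5 tested carriers listed beside Slc6a8, 3 were called lower and the others were not called. Among them, Slc16a12 and Slc22a15 lie outside the Slc6 family. Slc6a13, a carrier of GABA and taurine, fell from 26.6 ± 9.29 to 0.0608 ± 0.0670 CPM (SD, n = 6 each). Slc16a12 fell from 9.44 ± 2.61 to 1.79 ± 0.799 CPM (log2 fold change -2.43, edgeR adjusted p = 3.01e-05). Slc6a8 was called higher and none of those 5 was, where 28.2% of all genes were called higher and 34.8% lower. Both directions were also seen among 3 phosphatases. Alpl, the tissue-nonspecific alkaline phosphatase, rose by 1.06 on the log2 scale (edgeR adjusted p = 0.0083), while Phospho1 had a log2 fold change of -5.21 (edgeR adjusted p = 1.42e-04) and Phospho2 one of -1.02 (edgeR adjusted p = 2.61e-05).

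Other enzymes that pass phosphate between nucleotides were mixed in direction. Among 5 tested adenylate kinases 1 was higher and 3 lower (median -0.64), from Ak4 of the mitochondrial matrix at 1.46 (edgeR adjusted p = 0.00127) to cytosolic Ak1 at -2.91 (edgeR adjusted p = 0.0195). Ak1 is abundant in muscle, and its benign level was 218 ± 226 CPM (SD, n = 6). Among 7 nucleoside diphosphate kinases 3 were higher and 2 lower (median 0.20), from Nme5 at 1.66 to Nme2 at -0.90. Of 5 tested carriers and pores for ADP and ATP, 4 were called lower and the other was not called (median -0.76), led by Slc25a4, the exchanger of muscle and heart, at -2.23 (edgeR adjusted p = 0.00154). The mitochondrial kinase Ckmt1 works beside these carriers and moved opposite to the 4 that were called. Slc25a4 was at 665 ± 509 CPM in benign tissue and at 147 ± 27.9 CPM in tumors (SD, n = 6 each). The part of muscle tissue in the falls of these carriers was not tested.

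Of 7 regulators of mitochondrial genes, 2 were higher and 2 lower (median -0.065). Esrrg, the estrogen-related receptor gamma, rose from 7.19 ± 2.08 to 50.8 ± 11.7 CPM (SD, n = 6 each; log2 fold change 2.78, edgeR adjusted p = 4.56e-07), and its relative Esrrb fell from 15.7 ± 8.38 to 0.280 ± 0.261 CPM (log2 fold change -5.69, edgeR adjusted p = 1.54e-06). Receptors of this family bind the AAGGTCA element, which is marked once in the first Ckmt1 promoter above and is absent from the second. Binding was not measured. Of 4 tested muscle gene regulators, 3 were called lower and the other was not called (median -0.38), with the largest change in Mef2c at -3.64 (edgeR adjusted p = 7.43e-05). Over all 8 of these lists 11 of 52 tested genes (21.2%) were called higher and 26 (50%) lower, beside 28.2% and 34.8% of all genes.

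**Figure D5:**
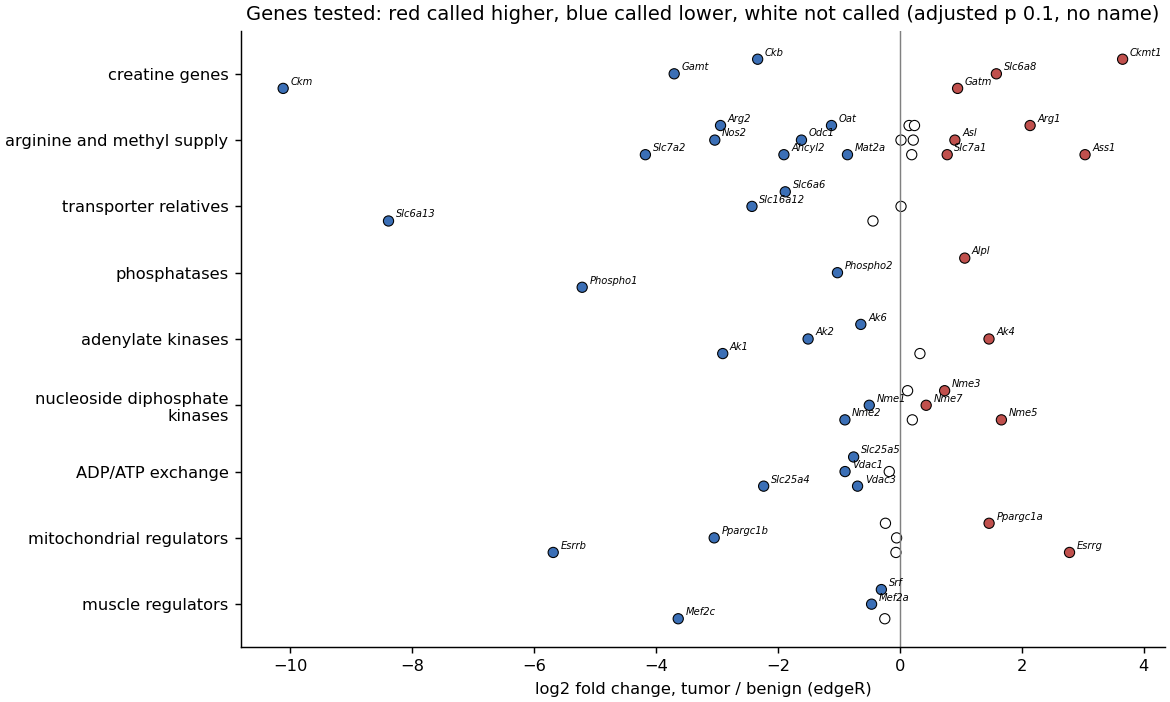
Log2 fold change from benign tissue to tumor (edgeR) of each tested gene, in rows for the creatine genes and 8 lists of related function, with genes called higher in red, called lower in blue and not called in white. Of the creatine genes 3 are red and 3 blue, and of the other lists 11 genes are red and 26 blue.

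The genes with the closest pattern to each creatine gene were found by Pearson's correlation of log2 CPM over the 12 samples, which is a description in which all genes share the same libraries and the same group difference. For Ckm they were Mylpf (0.984), Tnnt3 (0.977) and Stac3 (0.975), and for Ckmt2 they were Myom1 (0.993), Stac3 (0.990) and Ddit4l (0.988). Mylpf, Tnnt3 and Myom1 encode parts of the sarcomere, the contractile unit of muscle, and Stac3 a component of the muscle calcium release machinery. For Ckmt1 they were Dsp (0.986), Stox2 (0.986) and Fnbp1l (0.984), of which Dsp encodes desmoplakin of epithelial junctions. For Ckb they were Sod3 (0.988), Kcnh2 (0.988) and Fam171a1 (0.987). For Gamt they were Eepd1 (0.995), Ltc4s (0.994) and Ramp2 (0.994), for Gatm Ptpra (0.976), Golph3l (0.967) and Foxo3 (0.963), and for Slc6a8 Wnk2 (0.987), Tpd52l1 (0.985) and Adcy9 (0.977). After the mean of each group was subtracted, 2 of the 3 genes remained among the first 3 for Ckm and for Slc6a8, 1 for Ckmt2 and 0 for Ckb, Ckmt1, Gatm and Gamt. By Spearman's rank correlation 1 remained for Ckmt1 and for Gatm and 0 for the other 5, and the first 3 for Ckm were then Yars2, Rrn3 and Ttc19.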

How the data were processed

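RNA was measured by poly A enriched, paired-end sequencing in 6 tumors and 6 benign mammary tissues, grouped by their labels. The authors trimmed reads with Trim Galore, quantified transcripts with Salmon on mm10, and deposited an estimated count for each gene, in whole numbers and not scaled for library size. Tool versions, annotation and strand setting are not given in the sources used here.

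The table lists 16411 genes, the lowest sum of a gene being 5 counts. Genes were filtered with filterByExpr (minimum count 10, minimum total 15), scaled by TMM and compared by the two-sided quasi-likelihood test (edgeR 4.0.16, R 4.3.3); p-values of 13191 tested genes were adjusted by Benjamini-Hochberg and read at 0.1, after the study. Log2 CPM used 2 added counts. Exact permutation tests enumerated every split of the samples, and those against the luminal markers were adjusted by Benjamini-Hochberg with scipy 1.17.1. Total counts were 5240853 to 8588567 per sample, and limits from counts cover counting error only. Replicates differed by more than sampling noise in every pair (smallest chi-square per degree of freedom 12.5 in benign tissue, 16.4 in tumors). The table has 0 columns without a sample.

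The creatine genes and all lists were chosen with earlier results of these data known. Genes named were the 7 creatine genes, in each list of related function the called gene with the largest rise and the largest fall (all genes in lists of 3 or fewer), the 3 genes most correlated with each creatine gene, and Erbb2, Ucp1, Acta1, Adipoq, Krt8 and Krt18. Krt19, Slc16a12, Slc22a15, Arg1, Arg2, Nos2, Oat and Odc1 were named after their values were seen. Lists of slow muscle, brown fat, nerve and immune markers were also read. Alternatives were DESeq2 1.42.0, other scalings, filters, an adjusted p of 0.05, a block for replicate numbers, covariates, left-out samples, other transcript lengths and other measures of likeness. On simulated counts of 13191 genes, edgeR recovered 52.1% of 96 genes changed by 1 on the log2 scale and 98.1% of 104 changed by 2, with 18 of 170 calls false. DESeq2 recovered 54.2% and 99.0% of the same genes, with 47 of 202 calls false. The simulation gave all genes a common dispersion and changed these genes only, whereas 63% of all genes were called in the data. Its rates therefore need not hold for this comparison. No protein sequence was used here.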

Additional observations from a re-analysis of the deposited data

Results flagged for a closer look

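Within groups of 6, 3 of 14 sets of values held a sample whose gap to its nearest neighbour was large against the range of the group. A chance rate of about 1 in 20 would hold for independent sets. These sets share the same samples, and the gap of Ckmt2 is 5 counts against 0, so that rate tests nothing here. All 3 gaps lay in tumor 5. Ckm was at 11.9 CPM there, against 0 to 1.35 CPM in the other 5 tumors. Ckmt2 was at 0.638 CPM there, on 5 counts, and at 0 counts in the others. Ckmt1 was at 324 CPM there, against 85.7 to 164 CPM in the others. Tumor 5 also had the highest skeletal muscle marker sum among tumors (172 CPM), 54 counts of Ucp1 against 0 in each other tumor, and the highest level of Krt18 (1522 CPM). Without tumor 5 alone, the calls of the 6 tested genes were 3 higher and 3 lower.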

How the results depend on the processing

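Ckb, Ckmt1, Gatm, Gamt and Slc6a8 kept their direction and their call in every alternative that could test them, with log2 fold changes of -2.41 to -2.20, 3.16 to 3.85, 0.64 to 1.07, -3.75 to -3.45 and 1.49 to 2.08. Asking for 10 counts or more of a gene in every sample removed Gamt and Ckm, which left 1 creatine gene called lower in place of 3. Ckm was at -8.56 with the replicate block (edgeR adjusted p = 0.132), at -1.87 without benign 3, 4 and 6, and at 1.02 with the covariates, a reversed direction, though not called. Leaving out those samples, or adjusting for markers that follow Ckm, fixes such a shift, so the values of -1.87 and 1.02 test nothing. Ckmt2 had a difference of 0.290 in mean log2 CPM without benign 3, 4 and 6, a reversed direction, in a setting that holds no benign sample with a count of Ckmt2 and so tests nothing. With tumor 5 also left out, Ckmt2 was at 0 in all samples and Ckm was under the filter. With the covariates 16 genes of the lists of related function were called lower, against 26, and the cause was not tested.

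The replicate numbers did not pair the samples, as the correlations of their deviations ranged from -0.125 to 0.103, and under the block the call of Ckm was the only one lost among the creatine genes. Leaving out 1 sample at a time gave log2 fold changes of -2.39 to -2.20 for Ckb, -11.8 to -9.41 for Ckm, 3.39 to 3.85 for Ckmt1, -3.75 to -3.52 for Gamt, 0.86 to 1.07 for Gatm and 1.49 to 1.76 for Slc6a8, with 3 creatine genes higher and 3 lower each time. The difference of Ckmt2 ranged from -5.32 to -3.35, with exact p from 0.0606 to 0.182. Against the luminal markers, Slc6a8 passed an adjusted p of 0.05 only without benign 6 (0.71) and without benign 3, 4 and 6 (0.98). That choice of samples removes overlapping values and so tests nothing. The other 4 genes kept their call. The median log2 fold change of all genes was -0.062, and 0.030 with total counts.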
